A study of Mus musculus with 8 samples.

Results

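Expression of 31 genes of the unfolded protein response and the integrated stress response was examined in mouse macrophages that lack endogenous Sting and carry different STING transgenes. The genes were taken by name from the deposited table of 53715 genes. They comprise 14 chaperones and folding enzymes of the endoplasmic reticulum (ER), 4 genes of ER-associated degradation, 6 sensors and transcription factors, and 7 targets of the transcription factor Atf4 or its partners. Poly(A) RNA was sequenced from 8 libraries in 4 groups of 2, all from Sting-/- macrophages: no transgene (the MSCV2.2 vector in the titles), mSTING, dCTT and zfCTT. CTT stands for the C-terminal tail, through which STING recruits signalling proteins. The labels do not spell the constructs out. From knowledge of the study, dCTT is STING without that tail and zfCTT is mouse STING carrying the tail of zebrafish STING. The transgenes were stably expressed, and every group, the one without a transgene included, had received CMA, a small molecule that activates mouse STING (10-carboxymethyl-9-acridanone), at 500 µg/ml for 4 h. No library of unstimulated cells was analysed here, so the values compare transgenes under CMA and not CMA with its absence. The labels do not state whether libraries of 1 group are separate cultures, and p-values therefore measure only library-to-library spread, part or all of which may be technical.

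Secreted and membrane proteins fold in the ER, and when folding falls behind, the unfolded protein response is set off by the ER membrane sensors Ern1 (IRE1), Eif2ak3 (PERK) and Atf6. IRE1 splices the mRNA of the transcription factor Xbp1, PERK phosphorylates the translation factor eIF2α and so favours translation of Atf4, and Atf6 is cut to release a transcription factor. Other eIF2α kinases, among them the double-stranded RNA sensor PKR (Eif2ak2), feed into the same Atf4 arm, which is why it is called the integrated stress response. STING is itself an ER membrane protein that leaves the ER when activated. Gene-level mRNA values show neither the splicing of Xbp1 nor phosphorylation, cleavage or translation.

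The transcriptional arm works through short promoter elements, and those known for Atf6 and Xbp1 differ from those of the Atf4 arm. They are given here as a description of the promoters. The members were picked as known stress response genes, so a higher share of elements among them than among all genes is no test. Promoter windows of 300 bases, from 250 before to 50 after the start site, were matched for 28 of the 31 genes in RefSeq sequences of GRCm38.p6, and none was found for Atf6, Hyou1 and Manf. The ER stress response element (CCAAT, then 9 bases of any kind, then CCACG, on either strand) was present in 8 of the 28, namely Hspa5, Hsp90b1, Calr, Canx, Pdia6, Dnajc3, Creld2 and Syvn1, against 0.137% of all 27025 genes with a window. A shorter form (ATTGG, 1 base, CCACG) was present in Dnajb11 and Herpud1, against 0.0444% of genes. The loose C/EBP-ATF core (TGATG, 1 base, AA) was found in Herpud1, Trib3, Asns and Chac1, against 4.51% of genes. Neither the full core (TGATG, 1 base, AAT; 1.08% of genes) nor the unfolded protein response element (TGACG directly followed by TGG; 0.714% of genes) was found in these 28 windows. The elements did not set the arms fully apart. Herpud1 held both kinds, and 18 members with a window held neither the long nor the short ER stress response element. No match of one motif overlapped a match of another, and a match describes letters, not binding. The runs below are those of Calr as the most abundant member, of Creld2, Syvn1, Dnajc3 and Herpud1, whose values are given in full further on, and of Chac1 for the Atf4 arm. Each is read 5′ to 3′ on the strand of its gene, with the motif and its free bases in capitals; in Calr, Creld2 and Chac1 the motif lies on the other strand, so that its reverse complement appears.
Calr: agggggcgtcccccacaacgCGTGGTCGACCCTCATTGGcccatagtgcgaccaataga
Creld2: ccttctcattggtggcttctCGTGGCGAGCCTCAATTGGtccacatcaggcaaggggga
Syvn1: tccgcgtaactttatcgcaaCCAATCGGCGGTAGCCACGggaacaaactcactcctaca
Dnajc3: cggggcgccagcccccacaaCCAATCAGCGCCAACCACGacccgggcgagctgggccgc
Herpud1: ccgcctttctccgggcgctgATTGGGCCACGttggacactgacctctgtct
Chac1: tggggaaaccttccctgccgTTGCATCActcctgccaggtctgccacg
The Calr run lies at chr8:84847055-84847113 (minus strand), with the first base of the motif 162 bases before the start site. The Creld2 run is at chr15:88819500-88819558 (plus strand, motif from 126 bases before the start), the Syvn1 run at chr19:6046512-6046570 (plus strand, 44 bases) and the Dnajc3 run at chr14:118937807-118937865 (plus strand, 105 bases). The Herpud1 run is at chr8:94386357-94386407 (plus strand, 52 bases) and the Chac1 run at chr2:119351029-119351076 (plus strand, 193 bases). All lie upstream of the RefSeq start and in no exon of GENCODE M21. The matches of Hspa5 (65 bases before the RefSeq start) and Asns (23 bases) fall within the first exon of the longer GENCODE models, and those of Dnajb11 and Trib3 lie after the RefSeq start.

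Depth, recovered from the steps of the deposited RPKM (reads per kilobase of exon, scaled to library size), ran from 20.1 to 171 M reads per library, and both zfCTT libraries (20.1 and 34.8 M) were among the 3 shallowest. In a principal component analysis of the 13475 tested genes, the first component (38.2% of the variance) set zfCTT replicate 1 apart, and the second (37.0%) set replicate 1 of the group without a transgene and of dCTT apart from the other libraries. Tmem173, the gene of STING, stood at 3.23 and 2.42 RPKM without a transgene and at 10.6 to 22.7 in the libraries with one. Cxcl10, an interferon-induced chemokine used here as a reference for STING output, stood at no more than 1.19 RPKM without a transgene and with dCTT, at 336 and 68.9 with mSTING, and at 1275 and 734 with zfCTT. Of 14 macrophage markers 12 had a mean of at least 1 RPKM, and their summed level was 2108 to 2233 without a transgene, 1513 to 1842 with mSTING, 1790 to 1966 with dCTT and 1280 to 1637 with zfCTT. Gene by gene the direction was mixed, with 9 of 14 markers lower on average in zfCTT than without a transgene and 5 higher (Adgre1, Fcgr1, Ptprc, Spi1 and Aif1). Markers of fibroblasts (at most 0.0060 RPKM in sum), B cells (0.178), neutrophils (0.0611) and dendritic cells (0.447) were near 0. T cell markers summed to between 0.5001 and 1.84 RPKM with Cd3e and Cd8a at 0, and epithelial and endothelial markers to between 0.187 and 0.922, with the highest sums of both in zfCTT. In zfCTT most of the first sum came from Lck (1.81 and 1.83 RPKM) and most of the second from Kdr (0.757 and 0.337 RPKM). What part, if any, these differences in marker level have in the values below was not tested, and in bulk RNA fewer cells of a type cannot be told apart from less RNA per cell.

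All 31 genes were expressed above the filter of 1 RPKM in at least 2 libraries, and their levels spanned more than 2 orders of magnitude. Calr, the calcium-binding lectin chaperone, was the most abundant, with a mean of 246 RPKM over the 8 libraries. Phgdh, the first enzyme of serine synthesis, averaged 228 RPKM and Atf4 197 RPKM. These 3 lay at percentiles 96.3, 96.0 and 95.5 of all tested genes by mean level. The sensors were at the other end of the scale: Ern1 averaged 1.26 RPKM, Eif2ak3 1.94 and Atf6 4.00. The ER DnaJ protein Dnajb9, a co-chaperone of Hspa5 that is known as an Xbp1 target, averaged 1.65 RPKM and had the fewest reads of any member in 1 library, 39 in zfCTT replicate 1. RPKM is scaled per length, so these levels can be set beside each other, as the plot of levels by library shows.

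**Figure D1:**
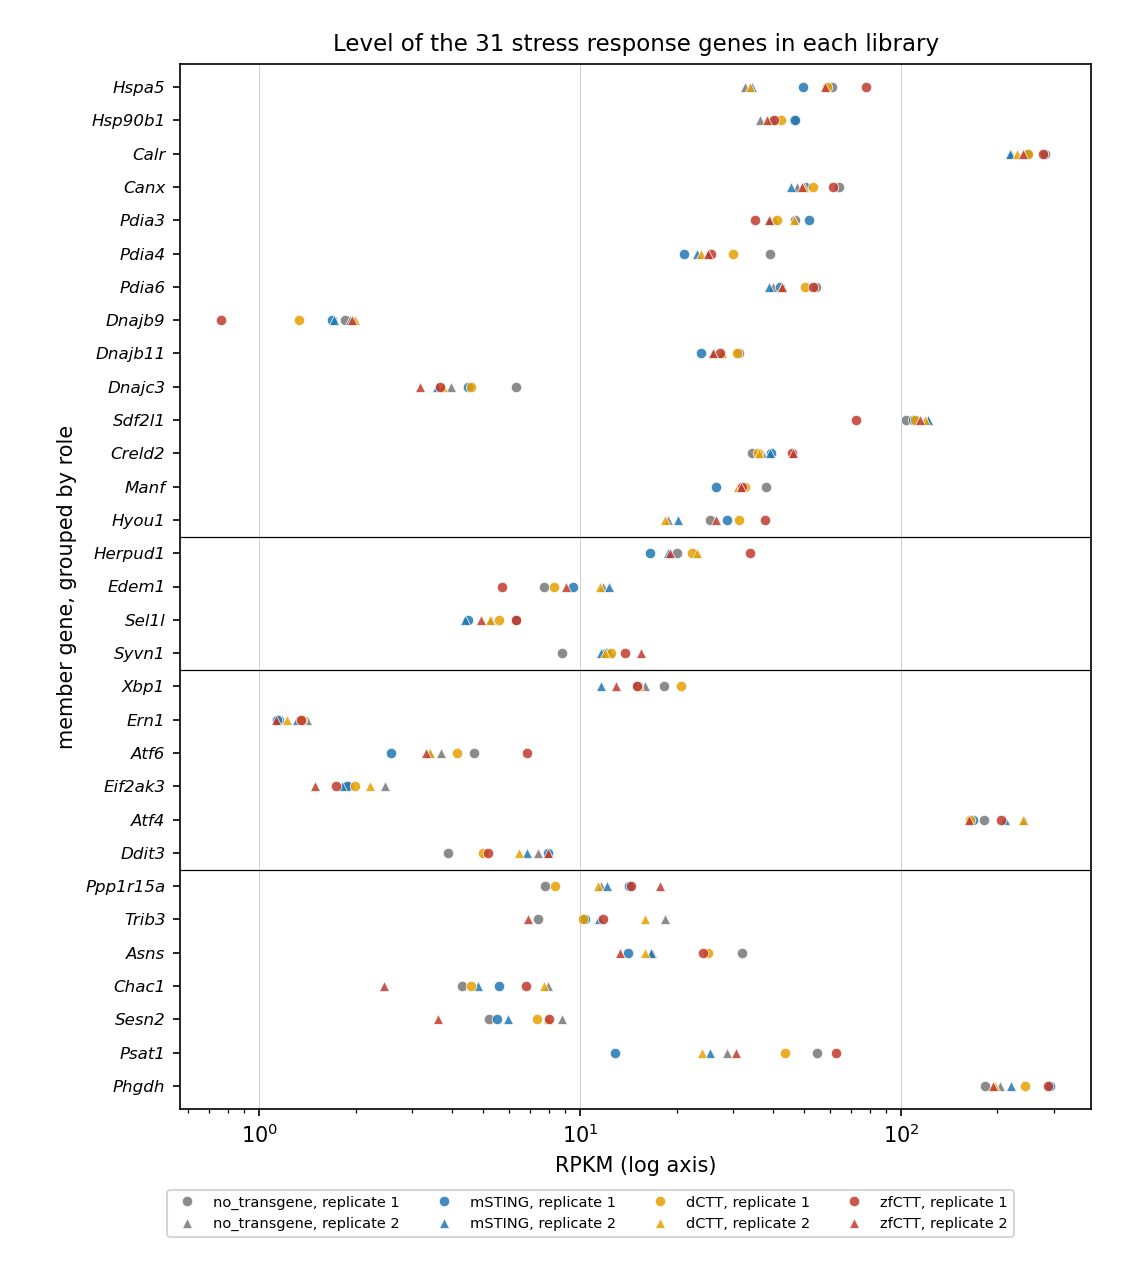
RPKM of each of the 31 genes (rows, grouped by role, from the top: ER folding, ER-associated degradation, sensors and transcription factors, stress response targets) in each of the 8 libraries, on a log axis; colours mark the group and shapes the replicate number. Levels run from near 1 RPKM for Ern1 and Dnajb9 to 246 and 228 on average for Calr and Phgdh, and the points of the 4 groups intermingle for most genes.

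No member passed the test in any of the 6 comparisons between groups. The test was limma on log2(RPKM + 1), two-sided, with Benjamini-Hochberg adjustment over all 13475 tested genes at 0.05, and it called 1.08% of all genes in zfCTT over no transgene, 0.119% in zfCTT over mSTING and 1.08% in zfCTT over dCTT. In mSTING over no transgene, dCTT over no transgene and dCTT over mSTING it called 0% of all genes, so in those comparisons the absence of a member says nothing particular about it. At an unadjusted p under 0.05, 1 of 31 members was found in zfCTT over no transgene, where 13.4% of all genes were, and 1 in zfCTT over dCTT, where 12.7% were; in both it was Ppp1r15a. None was found in zfCTT over mSTING (11% of all genes), mSTING over no transgene (3.47%), dCTT over no transgene (0.267%) or dCTT over mSTING (2.49%). The same model with precision weights on the recovered reads (limma-voom) also called 0 members in each comparison. At most 1 was at an unadjusted p under 0.05, and the share of all genes at that level is not given for this fit. It called 48 of 13457 tested genes in zfCTT over no transgene, and 0 in mSTING and in dCTT over no transgene. In these comparisons 0 members called therefore says nothing particular about the list. The smallest adjusted p of any member was 0.311 in the limma fit.

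The intervals give the range of differences for each gene alone, without adjustment for the number of genes tested. The adjusted test could miss larger differences than these. Atf3, a gene outside the 31, differed by 1.84 ± 0.41 in zfCTT over no transgene and was not called (adjusted p = 0.107 in limma). Carried over from RPKM + 1 to RPKM, the 95% confidence interval of 17 of the 31 members lay wholly within a 2-fold difference either way in zfCTT over no transgene, and that of 23 in dCTT over no transgene. On the log2(RPKM + 1) scale, which narrows the differences of genes near 1 RPKM, the interval reached a median of 0.60 and at most 1.26 units to either side of the estimate, the widest for Psat1. In RPKM the interval of Hspa5 ran from 0.762-fold to 2.92-fold its level without a transgene, and that of Ern1 from 0.562-fold to 1.49-fold. Folds with an interval below are carried over to RPKM in the same way. For Hspa5, Ppp1r15a, Hyou1 and Psat1, among others, a difference of 2-fold from no transgene lay inside the interval of zfCTT.

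Members lay on both sides of 0 in every comparison. The median log2 difference over the 31 was -0.06 in zfCTT over no transgene (all tested genes, -0.04), with 12 members above 0 and 19 below, and ranged from -0.45 for Dnajc3 to 0.69 for Ppp1r15a. The median size of the difference, whatever its sign, was 0.28 for the members and 0.24 for all genes. Against dCTT the zfCTT median was -0.03 (all genes, -0.02; from -0.45 for Trib3 to 0.66 for Ppp1r15a). The median in zfCTT over mSTING was 0.07 (all genes, 0.01; from -0.52 for Edem1 to 1.24 for Psat1). For mSTING over no transgene it was -0.15 (all genes, -0.04), the largest of the 6 in size, with 21 of 31 members below 0. In dCTT over no transgene the median was 0.01 (all genes, -0.01). In dCTT over mSTING the median was 0.10 (all genes, 0.03), with 21 of 31 members above 0. These comparisons share libraries with one another, so their values are not independent. The intervals of the 3 comparisons with zfCTT are plotted gene by gene.

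**Figure D2:**
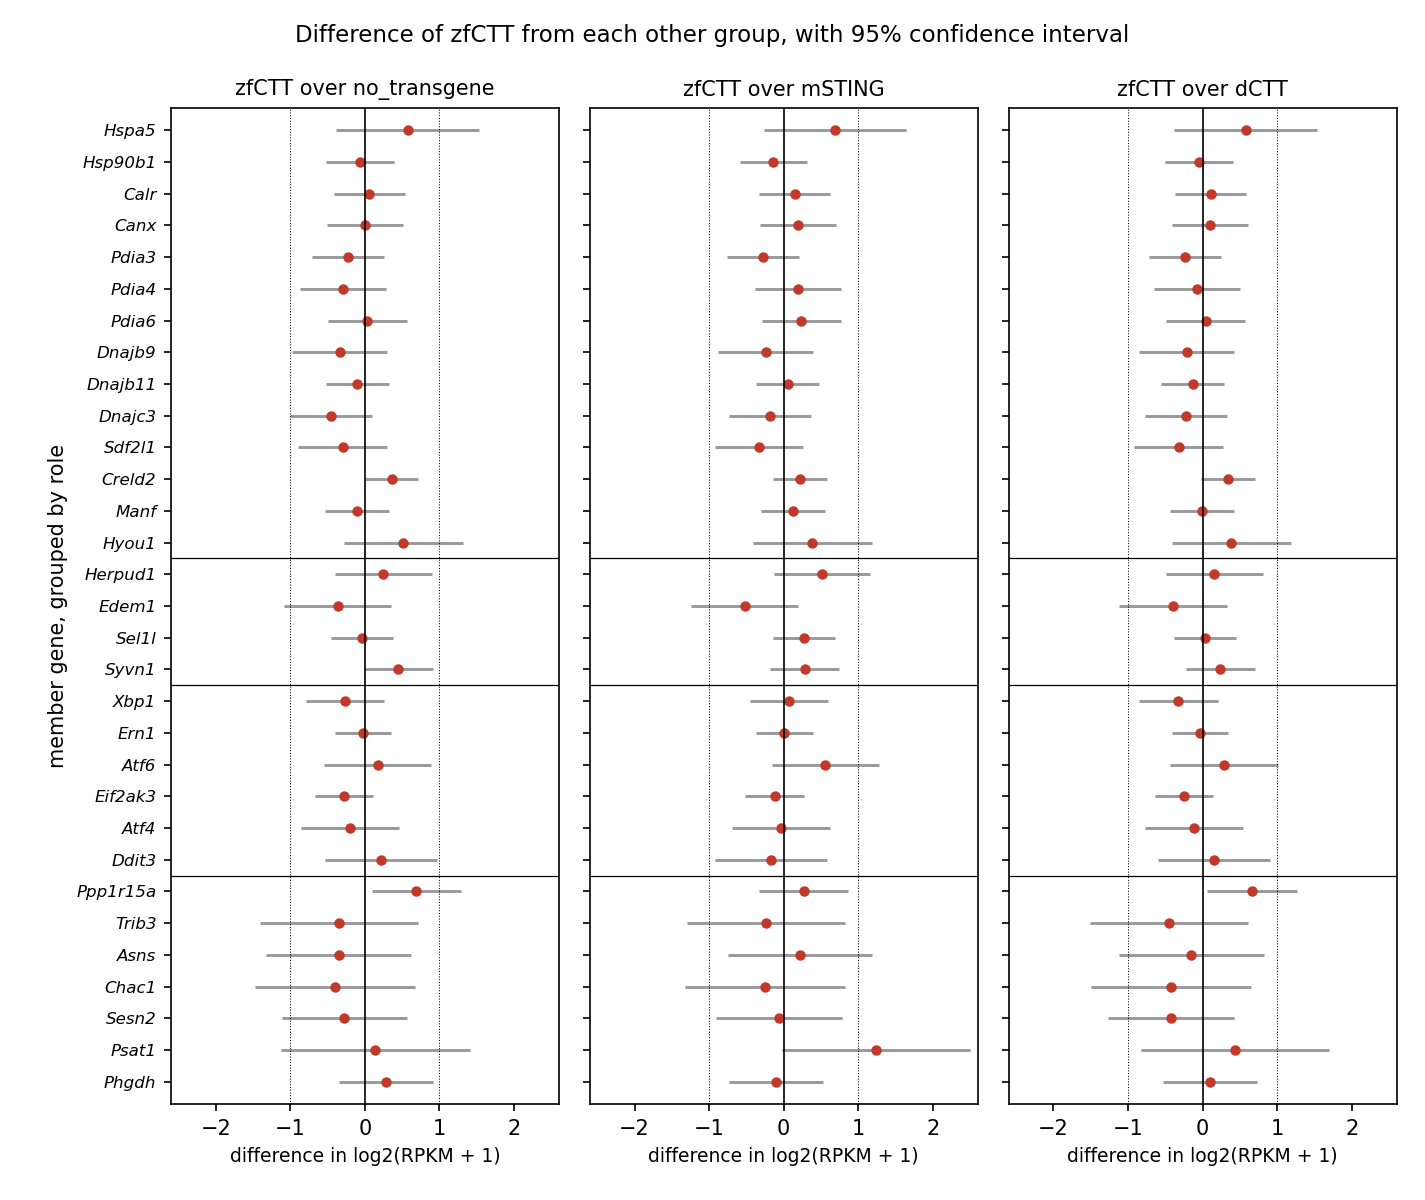
Difference in log2(RPKM + 1) of zfCTT from each other group (points) with its 95% confidence interval from the limma fit (bars), for the 31 genes grouped by role; dotted lines mark a 2-fold difference of RPKM + 1. The interval of Ppp1r15a lies above 0 in the left and right panels (0.09 to 1.29 and 0.06 to 1.26); all other intervals in these panels include 0, as do all in the middle panel.

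Among the ER folding genes, the central chaperone Hspa5 (BiP, ENSMUSG00000026864), which binds unfolded chains and holds the sensors inactive, is the standard reporter of the response. Hspa5 stood at 61.0 and 32.8 RPKM without a transgene, 49.7 and 34.4 in mSTING cells, 58.7 and 33.8 in dCTT cells, and 77.7 and 57.8 in zfCTT cells. Replicate 1 was the higher library in each group. The lower zfCTT library lay within the range of the group without a transgene, but within each replicate number the zfCTT library was the highest of the 4. The difference of zfCTT from no transgene was 0.57 ± 0.40 (SE) on the log2(RPKM + 1) scale, with a 95% interval of -0.38 to 1.53 and an adjusted p of 0.591 in limma. It was 0.13 without replicate 2 of the group without a transgene, 1.01 without its replicate 1 and 0.36 without zfCTT replicate 1. That of mSTING was -0.11 ± 0.40 (adjusted p = 0.946 in limma), and it turned to 0.33 when replicate 1 without a transgene was left out and to 0.15 without mSTING replicate 2.

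Hyou1, a large ER chaperone that acts as nucleotide exchange factor for Hspa5, had a similar order of libraries: 25.5 and 18.8 RPKM without a transgene, 28.7 and 20.2 in mSTING cells, 31.3 and 18.4 in dCTT cells, and 37.8 and 26.5 in zfCTT cells. Both zfCTT libraries lay above both without a transgene, though the lower one did not clear the higher mSTING and dCTT libraries, and here too zfCTT was highest within each replicate number. The difference was 0.51 ± 0.33 (adjusted p = 0.571 in limma), 0.26 without zfCTT replicate 1 and 0.30 without replicate 2 of the group without a transgene; Hyou1 was singled out here after its values were seen.

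Creld2 (ENSMUSG00000023272, chr15:88819646-88826683), an ER protein with disulfide isomerase activity known as an ER stress target, was the member with the tightest replicates. Its levels were 34.3 and 36.9 RPKM without a transgene, 39.4 and 39.2 in mSTING cells, 36.0 and 36.1 in dCTT cells, and 45.7 and 46.1 in zfCTT cells. Both zfCTT libraries were above all 6 others, and both mSTING libraries were above the 4 without a transgene or with dCTT. The difference of zfCTT from no transgene was 0.36 ± 0.15, or 1.29-fold in RPKM, with a 95% interval from 0.999-fold to 1.66-fold and an adjusted p of 0.375 in limma. From dCTT it was 0.34 ± 0.15 (adjusted p = 0.421 in limma).

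Dnajc3 (p58IPK), a co-chaperone that also inhibits PERK and PKR, lay the other way. It measured 6.31 and 3.97 RPKM without a transgene, 4.47 and 3.58 in mSTING cells, 4.56 and 3.75 in dCTT cells, and 3.67 and 3.16 in zfCTT cells. Both zfCTT libraries were below both without a transgene, a difference of -0.45 ± 0.23 (adjusted p = 0.471 in limma) in which replicate 1 without a transgene was the high library. Leaving out that library took the difference to -0.17, and leaving out the other one to -0.73.

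The abundant lectin and glucose-regulated chaperones differed less between groups than between the libraries of a group. Calr group means were 250.2 RPKM ± 42.9 (SD, n = 2) without a transgene, 234 ± 20.3 with mSTING, 239.8 ± 13.4 with dCTT and 259 ± 26.8 with zfCTT. Canx, its membrane-bound partner in glycoprotein folding, differed by 0.00 log2 units between zfCTT and no transgene, with an interval from 0.696-fold to 1.43-fold. Hsp90b1 (GRP94), the ER form of Hsp90, differed by -0.06 (0.691-fold to 1.32-fold). Of the disulfide isomerases, Pdia3, which works with Calr and Canx, had both zfCTT libraries (35.1 and 38.8 RPKM) below the other 6, which ran from 39.1 to 51.6. The difference of Pdia3 from no transgene was -0.23 ± 0.20 (adjusted p = 0.681 in limma). Pdia4 was highest in replicate 1 without a transgene (39.0 RPKM) and lowest in mSTING (21.1 and 23.1), and Pdia6 ran from 38.9 to 54.6 with its groups overlapping in zfCTT over no transgene. Sdf2l1, part of an ER chaperone complex, had 1 low library, zfCTT replicate 1 at 72.6 RPKM, while the other 7 ran from 104 to 122. Dnajb9 was low in the same library, at 0.763 RPKM against 1.33 to 1.98 in the rest. Dnajb11 and Manf, a co-chaperone and a secreted ER stress protein, differed between zfCTT and no transgene by -0.10 and -0.11. Reads of Hsp90b1, Pdia3, Pdia4, Pdia6, Dnajb9 and Manf share exonic sequence with other annotated genes, and as the strand setting is not given their values are uncertain to that extent. Over all 14 folding genes the median difference in zfCTT over no transgene was -0.08, with 5 above 0 and 9 below.

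The ER-associated degradation genes clear misfolded proteins to the proteasome. Syvn1 (HRD1, ENSMUSG00000024807, chr19:6046576-6053712), the ubiquitin ligase of the pathway, stood at 8.77 and 12.4 RPKM without a transgene, 12.1 and 11.6 in mSTING cells, 12.5 and 11.98 in dCTT cells, and 13.8 and 15.5 in zfCTT cells. The zfCTT libraries both exceeded the other 6, and the low value of replicate 1 without a transgene was the largest deviation. The difference from no transgene was 0.45 ± 0.19 (95% interval 0.988-fold to 1.97-fold, adjusted p = 0.389 in limma). Leaving out that library took it to 0.22, and leaving out the other one to 0.68. Syvn1 shares exonic sequence with Mrpl49 on the opposite strand.

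Herpud1, a membrane adaptor of the same ligase and a common ER stress reporter, measured 20.1 and 22.8 RPKM without a transgene, 16.5 and 18.8 in mSTING cells, 22.3 and 23.2 in dCTT cells, and 33.9 and 19.1 in zfCTT cells. Only zfCTT replicate 1 was high, and the difference of zfCTT from mSTING, 0.51 ± 0.27 (adjusted p = 0.495 in limma), was 0.11 without it and 0.91 without replicate 2. Edem1, which hands misfolded glycoproteins to degradation, showed the reverse, with 7.75 and 11.8 RPKM without a transgene, 9.49 and 12.3 in mSTING cells, 8.27 and 11.6 in dCTT cells, and 5.73 and 9.02 in zfCTT cells. Its zfCTT libraries were both below both mSTING libraries, with a difference of -0.52 ± 0.30 (adjusted p = 0.513 in limma), and replicate 1 was the lower library in all 4 groups. That difference was -0.24 without zfCTT replicate 1, -0.81 without zfCTT replicate 2 and -0.35 without mSTING replicate 2. Sel1l, the partner of Syvn1, was at 4.48 and 4.39 RPKM with mSTING, below the other 6 libraries, which ran from 4.91 to 6.32. Syvn1 and Sel1l, partners in the ligase complex, had different orders of group means.

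Among the sensors and transcription factors, Xbp1 (ENSMUSG00000020484) stood at 18.2 and 15.96 RPKM without a transgene, 15.1 and 11.6 in mSTING cells, 20.6 and 15.2 in dCTT cells, and 15.1 and 12.95 in zfCTT cells. All 4 libraries with a tailed STING (mSTING and zfCTT) were below the 4 without a transgene or with dCTT, by a narrow margin of 15.1 against 15.2. The same held for Eif2ak3, and these were 2 of 31 members against 3.57% of all tested genes. The difference of Xbp1 from no transgene was -0.34 ± 0.22 with mSTING (adjusted p = 0.840 in limma) and -0.27 ± 0.22 with zfCTT (adjusted p = 0.648 in limma), and from dCTT it was -0.32 ± 0.22 with zfCTT (adjusted p = 0.601 in limma). With 1 library left out these ran from -0.52 to -0.16 (without mSTING replicates 1 and 2), from -0.37 to -0.17 (without zfCTT replicates 1 and 2) and from -0.53 to -0.12 (without dCTT replicates 2 and 1). Without replicate 1 of the group without a transgene the zfCTT value was -0.18.

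Eif2ak3, the kinase PERK, was measured at 1.90 and 2.47 RPKM without a transgene, 1.88 and 1.82 in mSTING cells, 1.99 and 2.22 in dCTT cells, and 1.74 and 1.49 in zfCTT cells. In zfCTT the libraries were the lowest of the 8, with differences of -0.28 ± 0.16 from no transgene (adjusted p = 0.523 in limma) and -0.25 ± 0.16 from dCTT (adjusted p = 0.589 in limma). The former was -0.15 without replicate 2 of the group without a transgene. Its exons overlap Gm43292 on the opposite strand. Ern1, the other kinase sensor, was the flattest member, with a largest difference between group means of 0.04 log2 units and levels from 1.13 to 1.41 RPKM. Atf6 stood at 4.69 and 3.70 RPKM without a transgene, 2.57 and 3.37 in mSTING cells, 4.14 and 3.41 in dCTT cells, and 6.83 and 3.31 in zfCTT cells. The single high library, zfCTT replicate 1, made up the difference from mSTING of 0.56 ± 0.30 (adjusted p = 0.499 in limma), which was 0.13 without it and 0.99 without replicate 2.

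Atf4 (ENSMUSG00000042406), the effector of the integrated stress response, is controlled mainly at translation, and its mRNA was abundant in every group. It measured 182 and 241 RPKM without a transgene, 167 and 210.4 in mSTING cells, 164 and 241 in dCTT cells, and 206 and 163 in zfCTT cells. All groups overlapped, with differences from no transgene of -0.16 ± 0.27 with mSTING (adjusted p = 0.885 in limma) and -0.19 ± 0.27 with zfCTT (adjusted p = 0.810 in limma). Both signs turned, to 0.04 and 0.01, when replicate 2 without a transgene was left out, and the mSTING difference also turned, to 0.01, without mSTING replicate 1.

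Ddit3 (CHOP, ENSMUSG00000025408), a transcription factor induced by Atf4 and tied to stress-induced cell death, stood at 3.87 and 7.41 RPKM without a transgene, 7.94 and 6.83 in mSTING cells, 4.98 and 6.45 in dCTT cells, and 5.15 and 7.94 in zfCTT cells. The spread without a transgene covered most of the other values. Its differences were 0.38 ± 0.31 with mSTING (adjusted p = 0.840 in limma) and 0.21 ± 0.31 with zfCTT (adjusted p = 0.820 in limma), and they became -0.01 and -0.18 without the low replicate 1. The zfCTT difference also turned, to -0.06, without zfCTT replicate 2. A second identifier of Ddit3, Gm4189 and Mars share exonic sequence with it, so this value is uncertain.

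Of the stress response targets, Ppp1r15a (GADD34, ENSMUSG00000040435, chr7:45522916-45526268) gave the largest difference of zfCTT from no transgene. It encodes the subunit that directs a phosphatase to eIF2α and so ends the block of translation. Ppp1r15a measured 7.79 and 11.6 RPKM without a transgene, 14.2 and 12.1 in mSTING cells, 8.34 and 11.4 in dCTT cells, and 14.4 and 17.8 in zfCTT cells. Both zfCTT libraries were above the other 6, and all 4 libraries with a tailed STING were above the 4 without. The difference of zfCTT was 0.69 ± 0.25 from no transgene (1.07-fold to 2.59-fold, unadjusted p = 0.0301, adjusted p = 0.311 in limma) and 0.66 ± 0.25 from dCTT (adjusted p = 0.346 in limma). That of mSTING from no transgene was 0.42 ± 0.25 (adjusted p = 0.840 in limma). The range over all alternatives was 0.43 to 0.95 for zfCTT over no transgene, both from leaving out 1 library without a transgene (replicate 1 and 2), with adjusted p between 0.165 and 0.709. The same omissions took the mSTING value to 0.16 and 0.68. Its exons overlap Tulp2 on the opposite strand.

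In all, both zfCTT libraries were above the other 6 for 3 of 31 members (Creld2, Syvn1 and Ppp1r15a) and below them for 2 (Pdia3 and Eif2ak3), where 10.5% and 10.9% of all tested genes were. All 4 mSTING and zfCTT libraries were above the other 4 for 2 members (Creld2 and Ppp1r15a), where 4.72% of genes were. These shares are near those of all genes. Of the 5 members outside the other groups in zfCTT, 4 share exonic sequence with another gene, Creld2 being the exception.

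Intervals were widest among the 7 stress response targets, reaching a median of 0.97 log2 units to either side. Psat1, the aminotransferase of serine synthesis, measured 54.8 and 28.8 RPKM without a transgene, 12.8 and 25.4 in mSTING cells, 43.5 and 23.9 in dCTT cells, and 62.8 and 30.7 in zfCTT cells. Both mSTING libraries were below both libraries without a transgene and with zfCTT, but the gap between libraries of 1 group reached 1.01 log2 units. The difference of zfCTT from mSTING was 1.24 ± 0.53 (95% interval 0.979-fold to 5.91-fold, adjusted p = 0.465 in limma), and that of mSTING from no transgene -1.09 ± 0.53 (adjusted p = 0.840 in limma). The former was 0.73 without zfCTT replicate 1 and 0.77 without mSTING replicate 1; the latter was -0.63 without mSTING replicate 1 and -0.64 without replicate 1 of the group without a transgene. Asns, asparagine synthetase, also had 1 high library each without a transgene (32.0 RPKM), with dCTT (25.1) and with zfCTT (24.2), in each case replicate 1, and 13.3 to 16.8 elsewhere. Phgdh, the enzyme of the same serine pathway as Psat1, ran from 183 to 203 RPKM without a transgene and was above these in both mSTING libraries (291 and 220.4), the opposite side to Psat1.

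Trib3, a pseudokinase that restrains Atf4 output, Chac1, a glutathione-degrading enzyme, and Sesn2, an amino acid sensor of the mTORC1 pathway, shared a pattern across libraries rather than groups. Trib3 stood at 7.40 and 18.4 RPKM without a transgene, 10.3 and 11.5 in mSTING cells, 10.2 and 15.9 in dCTT cells, and 11.8 and 6.87 in zfCTT cells. Chac1 stood at 4.27 and 7.94 without a transgene, 5.59 and 4.82 in mSTING cells, 4.59 and 7.73 in dCTT cells, and 6.79 and 2.46 in zfCTT cells. Sesn2 stood at 5.22 and 8.80, 5.52 and 5.98, 7.34 and 7.97, and 8.02 and 3.61 in the same order. Each was highest in replicate 2 without a transgene and lowest in zfCTT replicate 2, and their differences between zfCTT and no transgene (-0.35, -0.40 and -0.28) had SEs of 0.35 to 0.45. Atf4, Ern1 and Eif2ak3 had the same highest and lowest library. In total 8 of 31 members, or 25.8%, were lowest in zfCTT replicate 2, against 10.2% of all tested genes. Shares departed from those of all genes for other libraries too. In mSTING replicate 2, 16.1% of members were lowest, against 5.13% of genes, and in zfCTT replicate 1, 12.9% against 24.7%.

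The spread between the 2 libraries of a group was set beside the differences between groups. These measures are unlike, since single libraries vary more than means of 2. The gap therefore tends to be the larger even where groups do not differ. The largest gap within a group exceeded the range of the 4 group means for 26 of 31 members (83.9%) and for 68.4% of all tested genes. The median largest gap was 0.557 log2 units for the members and 0.502 for all genes, and the median range of group means was 0.390 and 0.411. The 5 exceptions were Creld2, Sel1l, Eif2ak3, Ppp1r15a and Psat1, as the plot of the 2 spreads shows.

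**Figure D3:**
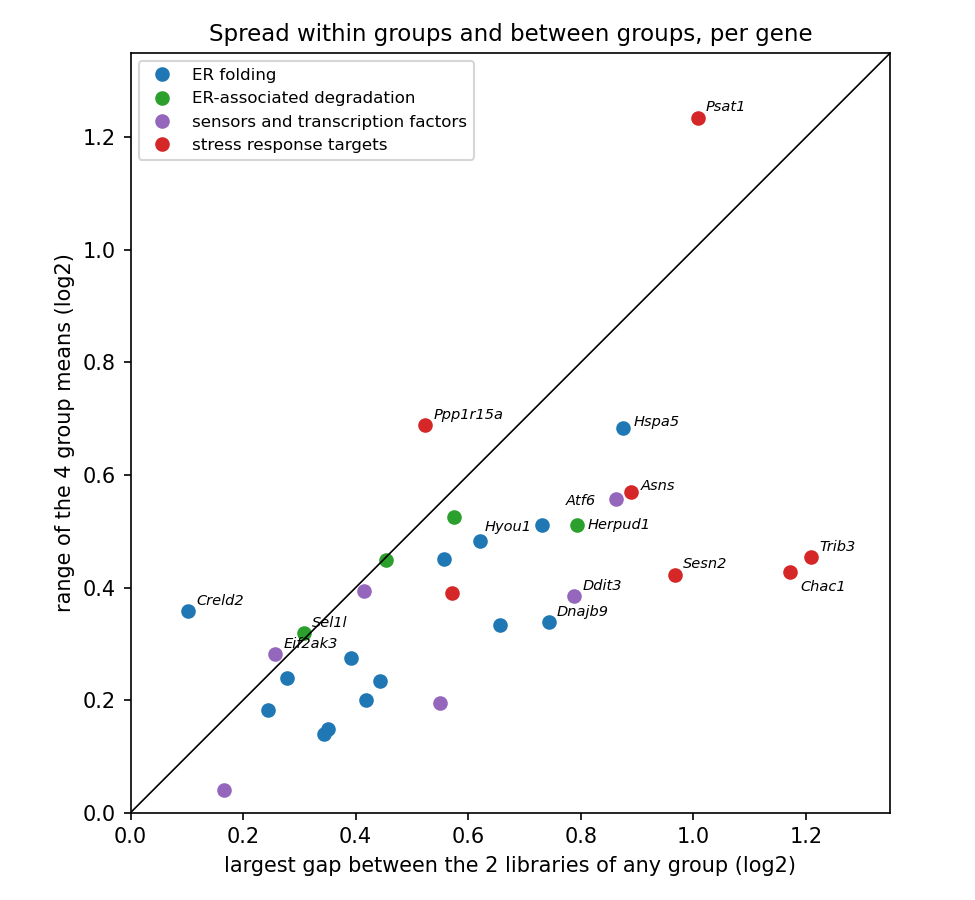
For each of the 31 genes, the range of the 4 group means (vertical axis, log2) against the largest gap between the 2 libraries of any group (horizontal axis, log2), coloured by role; the line marks equality. Above the line lie 5 genes, among them Psat1, Ppp1r15a and Creld2, and 26 lie below it.

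Part of that spread ran along the replicate numbers. Replicate 1 was above replicate 2 in all 4 groups for 9 of 31 members (29.0%; all tested genes, 14.3%): Hspa5, Hsp90b1, Calr, Canx, Pdia6, Dnajc3, Hyou1, Sel1l and Xbp1. It was below in all 4 for Dnajb9, Sdf2l1 and Edem1 (9.68%; all genes, 17.3%). Within each number the zfCTT library was the highest of 4 for 6 of 31 members (Hspa5, Creld2, Hyou1, Syvn1, Ppp1r15a and Psat1), against 20.2% of all tested genes. The labels give these numbers without saying what they mark, and the 2 libraries of a group also differed in depth, except with mSTING. The map of deviations shows both patterns.

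**Figure D4:**
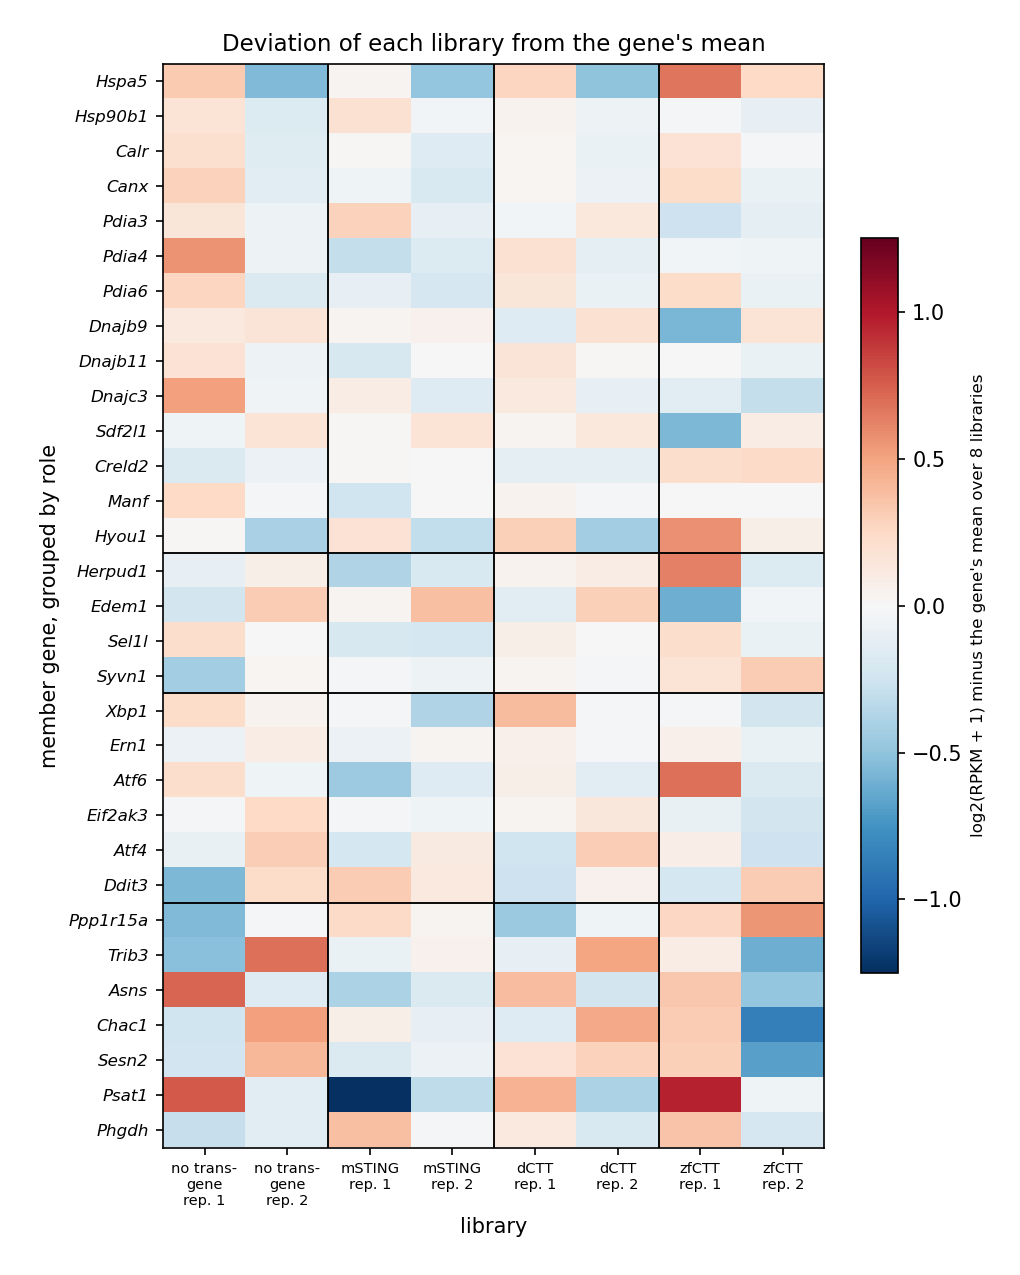
Each library's log2(RPKM + 1) minus the gene's mean over the 8 libraries (colour, red above and blue below), for the 31 genes in rows grouped by role and the 8 libraries in columns grouped by transgene. Hspa5 and Hyou1 are lighter or bluer in replicate 2 than in replicate 1 of every group, and Trib3, Chac1 and Sesn2 are bluest in zfCTT replicate 2.

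The rest of the pathway was described with lists of genes that are not among the 31. Of 39 tested genes of 43 in a further ER protein quality control list, 0 passed in any comparison, with 4 at an unadjusted p under 0.05 in zfCTT over no transgene by limma. Of 41 tested of 42 further integrated stress response genes, 1 fell in zfCTT over no transgene and in zfCTT over dCTT, and 0 rose; 7 were at an unadjusted p under 0.05 in each. None of 10 eIF2 kinases and factors, 2 tested of 6 mRNAs known to be cut by IRE1, or 10 tested of 12 cytosolic heat shock genes passed, with 1, 2 and 2 at an unadjusted p under 0.05 in zfCTT over no transgene by limma, a level that 13.4% of all tested genes reached there. Medians of these 5 lists in that comparison were -0.08, -0.04, 0.04, -0.61 and 0.28, beside -0.04 for all tested genes. The value of -0.61 rests on only 2 genes, Bloc1s1 (-0.74) and Hgsnat (-0.47), and cannot be set beside the medians of longer lists. Bloc1s1 shares exonic sequence with Rdh5 on the same strand, so its value is uncertain.

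The gene that fell was Stc2, a secreted glycoprotein known as an Atf4 target. Its levels were 3.71 and 2.24 RPKM without a transgene, 1.10 and 1.41 in mSTING cells, 2.45 and 2.27 in dCTT cells, and 0.0289 and 0.367 in zfCTT cells, the last 2 from 3 and 66 reads. Both zfCTT libraries were below the other 6. The difference was -1.72 ± 0.24 from no transgene (adjusted p = 0.0374 in limma) and -1.50 ± 0.24 from dCTT (adjusted p = 0.0496 in limma). Both calls ended when any 1 of the 8 libraries was left out, and 4 of 17 alternatives kept each. The differences themselves ran from -1.99 to -1.45 and from -1.71 to -1.30 with 1 library left out, and to -4.32 and -4.13 by voom, with adjusted p from 0.0213 to 0.354 and from 0.0294 to 0.340. The scale of log2(RPKM + 1) understates the change of a gene at such low values.

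A pair of genes in these lists was singled out after their values were seen. Eif2ak2, the eIF2α kinase PKR and also an interferon-stimulated gene, stood at 2.63 and 1.98 RPKM without a transgene, 7.92 and 3.44 in mSTING cells, 2.09 and 2.28 in dCTT cells, and 9.33 and 7.69 in zfCTT cells. All 4 libraries with a tailed STING were above the 4 without, and zfCTT differed from no transgene by 1.53 ± 0.33 (adjusted p = 0.0975 in limma). It passed in 3 of 17 alternatives, with the smallest adjusted p of 0.0367. Atf3, a stress-induced transcription factor of the Atf4 arm that is also induced by other signals, stood at 12.1 and 26.4 RPKM without a transgene, 32.5 and 27.8 in mSTING cells, 13.5 and 25.2 in dCTT cells, and 66.2 and 66.9 in zfCTT cells. Both zfCTT libraries of Atf3 were above the other 6, with a difference from no transgene of 1.84 ± 0.41 (adjusted p = 0.107 in limma). Of the other eIF2α kinases, Eif2ak3 is given above, Eif2ak4 ran from 3.89 to 4.77 RPKM over the 8 libraries, and Eif2ak1 from 7.22 to 13.3.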

How the data were processed

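The 31 genes and all gene lists were chosen with earlier results of these data known. Reads were single-end, from poly(A) RNA, per the labels' protocols. The deposited values are RPKM computed by the authors for each gene; cutadapt 1.16, HISAT2 2.1.0 and the builds GRCm38 and mm10 are named, without their roles, per the submitters' processing notes. For the read counter, annotation release and strand setting, no statement was found (not given in the sources used here). Groups came from the transgene label and replicate numbers from the titles.

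Symbols were found for 53620 identifiers and 95 had none; exon lengths and coordinates are from GENCODE M21 (GRCm38). Multiplied by exon length, 95.0% to 95.4% of the nonzero RPKM in a library were whole multiples (to 0.05 read) of a single step, from which depth was recovered. RPKM are not counts, so the test was limma 3.58.1 (R 4.3.3) on log2(RPKM + 1) with a mean per group and an intensity trend, for the 13475 genes that reached 1 RPKM in 2 or more of the 8 libraries. All 8 libraries entered 1 fit (4 residual degrees of freedom), and p-values were adjusted by Benjamini-Hochberg within each of 6 comparisons. The filter keeps a gene that is high in 1 group alone. Errors of differences are SE from the fit, and errors of levels SD over 2 libraries. The fit was also run on simulated data whose noise was drawn independently for each library. That simulation held no spread shared along replicate numbers, and it is not used here as support for the values of the members. The genes given in full were the 4 members with the smallest adjusted p in each comparison with zfCTT, Hspa5, Xbp1, Atf4 and Ddit3, and members of other lists past the threshold without overlap. Alternatives were pseudocounts, filters, scaling, a replicate block, voom on recovered reads and leaving out libraries.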

Additional observations from a re-analysis of the deposited data

How the results depend on the processing

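No member passed the threshold in any of 114 fits (6 comparisons under 18 alternatives and the reported setting). The smallest adjusted p was 0.155, for Hyou1 in zfCTT over no transgene with the replicate block in limma. Many of these fits called few or 0 genes of any kind, so a member count of 0 says little about the members in particular. Counts of all genes called depended on the setting. In zfCTT over no transgene 146 genes became 34 with no filter, 64 at a mean RPKM of at least 5, 32 with only the 2 groups compared, 48 by voom, 0 without replicate 1 of both no transgene and dCTT, and 2 to 144 with 1 library left out. In zfCTT over dCTT 146 became 28 with no filter, 61 at that mean, 65 with only the 2 groups, 0 without those 2 libraries, and 1 to 148 with 1 left out. Leaving out any 1 library other than the mSTING ones lowered both of these counts by more than 1.5 times. In zfCTT over mSTING 16 became 0 with a pseudocount of 0.1, 29 with no filter, 2 at a mean of at least 5, 0 with only the 2 groups, 8 by voom, 0 without those 2 libraries, and 0 to 5 with any 1 left out. In mSTING over no transgene 0 became 11 and 1 with pseudocounts of 0.1 and 0.5, 12 with no filter and 0 to 16 with 1 library left out; in dCTT over mSTING 0 became 3 with a pseudocount of 0.1, 14 with no filter and 0 to 10; in both, the highest count with 1 library left out came without mSTING replicate 2. The cause was not tested.

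Replicate numbers are shared in the labels, but the numbers pair the libraries only weakly between mSTING and the others: across 13475 genes the difference of replicate 1 from 2 correlated at 0.0364 between no transgene and mSTING, 0.0318 between mSTING and dCTT, 0.762 between no transgene and dCTT, and 0.264 to 0.433 for zfCTT with the others. With the replicate block 432, 44 and 409 genes were called in zfCTT over no transgene, mSTING and dCTT, and 0 in the other 3 comparisons; 0 members were called, with 7, 4 and 4 at an unadjusted p under 0.05 in the 3 zfCTT comparisons (19.4%, 17.8% and 19% of all genes) and 1 in dCTT over mSTING (3.93%).

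The median over the members moved with quantile normalisation from -0.15 to -0.04 in mSTING over no transgene and from 0.10 to 0.05 in dCTT over mSTING. With 1 library left out it ran from -0.08 to 0.03 in dCTT over no transgene, from -0.14 to 0.06 in zfCTT over no transgene and from -0.11 to 0.06 in zfCTT over dCTT. Signs turned for Atf4 in mSTING (-0.36 to 0.04) and zfCTT (-0.40 to 0.01), Ddit3 in mSTING (-0.01 to 0.78) and zfCTT (-0.18 to 0.61), and Hspa5 in mSTING (-0.55 to 0.33), all over no transgene with 1 library left out; without both replicate 1 libraries named above they were -0.01 and -0.18 for Ddit3 and 0.33 for Hspa5. Of the named values under the alternatives, 492 kept direction and call, 26 (all Stc2) lost the call, 3 (Eif2ak2) gained it and 11 turned sign. A mean RPKM of at least 5 left no value for Dnajc3, Atf6, Eif2ak3, Eif2ak2 and Stc2. Some low members had few reads in zfCTT, the shallowest group. Dnajb9 had 39 and 173 reads in its replicates 1 and 2, and Chac1 had 223 and 140. What part depth had in their values was not tested.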

Other observations

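The cytosolic heat shock genes are a protein folding response outside the ER. Of 10 tested, 9 lay above 0 in zfCTT over mSTING and 7 in zfCTT over no transgene, with 0 past the threshold in limma. At an unadjusted p under 0.05 there were 2 in each, where 11% and 13.4% of all tested genes were. The median differences were 0.40 and 0.28, beside 0.01 and -0.04 for all tested genes. Libraries of 1 group lay far apart for some: without a transgene Hspa8 stood at 553 and 201 RPKM and Hsp90aa1 at 153 and 59.0. Hspa1b, an inducible Hsp70, stood at 1.85 and 2.602 RPKM without a transgene, 2.99 and 2.81 in mSTING cells, 2.28 and 2.43 in dCTT cells, and 4.72 and 8.89 in zfCTT cells. Both zfCTT libraries were the highest of the 8. Hspa1a had the same order of groups, but the 2 genes are near-identical copies whose reads may have been split. They are therefore uncertain and do not count as separate observations, although the counts above include both.

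Sec24d, a coat protein of vesicles that leave the ER, measured 1.71 and 2.22 RPKM without a transgene, 2.16 and 2.15 in mSTING cells, 1.97 and 2.15 in dCTT cells, and 5.03 and 4.27 in zfCTT cells, with an adjusted p of 0.0589 in limma against no transgene. Slc7a11, the cystine transporter of the Atf4 arm, followed single libraries instead, with 4.36 and 0.588 RPKM without a transgene, 0.472 and 0.572 in mSTING cells, 3.44 and 0.517 in dCTT cells, and 1.71 and 0.704 in zfCTT cells. Both genes were picked after their values were seen.

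The genes that were higher in replicate 1 of every group and those with an ER stress response element overlapped, which was noticed after the values were seen. Of the 9 former, 1 (Hyou1) has no promoter window, and 6 (66.7%) had the long or short element, namely Calr, Canx, Dnajc3, Hsp90b1, Hspa5 and Pdia6, and these were 60% of the 10 genes with an element. The 10 genes with an element had a median difference of 0.04 in zfCTT over no transgene (from -0.45 for Dnajc3 to 0.57 for Hspa5, 6 of 10 above 0). It was -0.27 for the 18 with a window but no element and -0.04 for all tested genes. With and without an element the medians were 0.21 and -0.08 in zfCTT over mSTING, and 0.10 and -0.18 in zfCTT over dCTT. They were -0.13 and -0.13 in mSTING over no transgene, -0.01 and 0.02 in dCTT over no transgene, and 0.07 and 0.10 in dCTT over mSTING. These lists were not compared by a test.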
